A study of Astyanax mexicanus with 14 samples.

Results

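Of the 19076 genes counted in whole larvae of the Mexican tetra (Astyanax mexicanus), 101 changed after UV-B light in surface fish while their estimated change in Pachón cavefish was close to 0. After UV-B, 90 of them were lower and 11 were higher in surface fish. They were chosen from their measured values on the log2 scale of counts per mega-count (CPM). A member differed by at least 0.6 between surface UV-B and surface control libraries with no overlap of these groups, and differed by less than 0.2 between cave UV-B and cave control libraries. It also had a mean of at least 50 counts, a control level under 1000 CPM and a difference between cave and surface controls under 2. Genes that were higher after UV-B and already higher by 0.5 or more in cave controls were left out, so the rule treats higher and lower genes unequally. The estimated responses of both populations and the control difference therefore describe the choice and are given without tests.

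The libraries came from pools of 4 whole larvae aged 6 days post-fertilization. They formed 4 groups, namely surface fish given UV-B (n = 4), surface fish given white light as a control (n = 4), Pachón cavefish given UV-B (n = 3) and Pachón cavefish given white light (n = 3). Exposure lasted 60 s and RNA was taken 90 min later. A single cave population was measured, and the pools mix all tissues of the body, so fewer cells of a type and less RNA per cell cannot be told apart.

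UV-B is absorbed by DNA and proteins and is stopped mostly in the outer layers of the body, where the epidermis is exposed first. Cells that receive it activate DNA repair, stress kinases and inflammatory signalling, in which the transcription factor NF-kB and its many adaptors and inhibitors set the output of cytokine and chemokine genes. Surface fish and cavefish are forms of the same species, and the cave form has lost its functional eyes and much of its pigment.

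Total counts ran from 7.42 to 15.26 M (mega-counts) per library, and a limit of 3 counts corresponded to 0.197 to 0.404 CPM. Surface control replicate 4 had the highest total. Whether reads of both strands were counted was not settled. If they were not, the totals and the limits in counts cover only part of what was sequenced. Of 8 photoreceptor markers, 6 could be found by name, and no group mean of the 6 was at 0. In cave controls saga and nrl averaged 0.142 and 0.112 CPM, below the limit of 3 counts. Their summed level was 2176 to 2406 CPM in surface UV-B libraries, against 1106 to 1548 CPM in surface controls. In cavefish it was 27.3 to 29.1 CPM after UV-B and 15.7 to 19.0 CPM in controls. Lens and blood markers could not be matched to names.

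The members were a small part of the surface response. Before the limit on the cave response, 1227 genes met the rule in surface fish, of which 937 were lower and 290 higher after UV-B. Among the lower ones, 606 (64.7%) were also lower by at least 0.6 in cavefish, and 90 (9.61%) stayed within 0.2. Among the higher ones, 239 (82.4%) were also higher by at least 0.6 in cavefish, and 11 (3.79%) stayed within 0.2. For comparison, the estimated cave response was within 0.2 for 31.8% of all 11432 genes that passed the limits on level and control difference. Without the limits on the control difference, 94 lower and 26 higher genes would have qualified. A control difference of 2 or more removed 4 lower and 13 higher genes, and 2 higher genes were left out because cave controls were already higher.

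**Figure D1:**
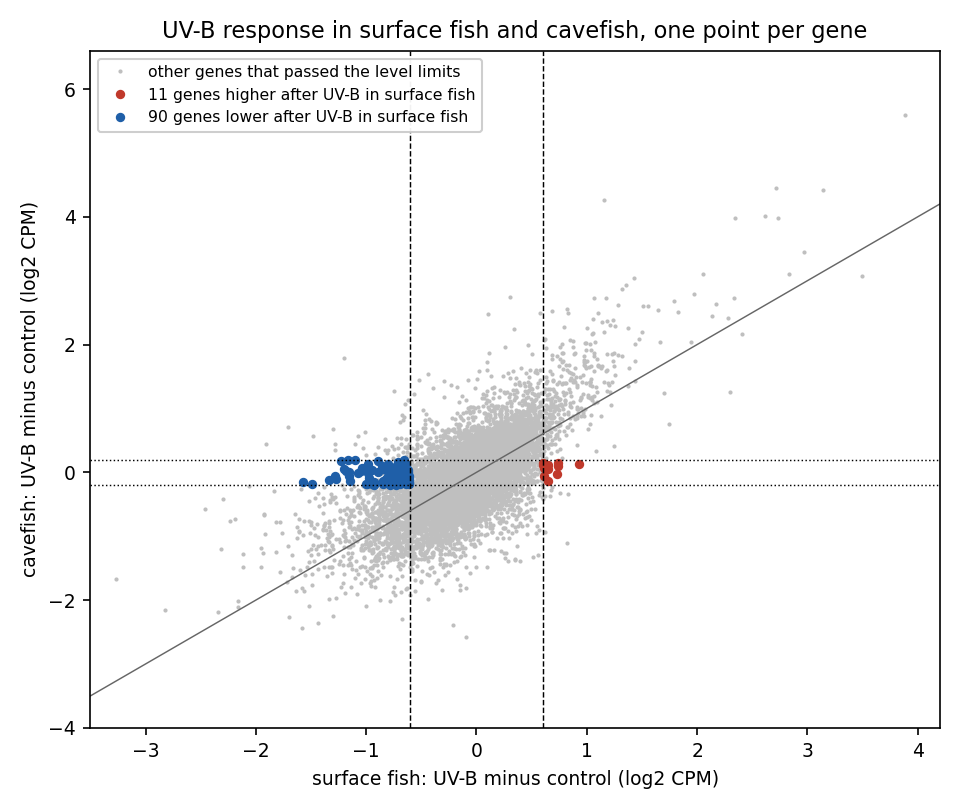
Response to UV-B (UV-B minus control, log2 CPM) in surface fish on the horizontal axis and in cavefish on the vertical axis, with a point for each of 11432 genes. Dashed lines stand at 0.6 and -0.6, dotted lines at 0.2 and -0.2, and the solid line marks equal responses. The 90 lower genes (blue) and 11 higher genes (red) lie between the dotted lines, while most genes beyond the dashed lines changed in cavefish too.

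The lower members fell by a median of 0.779 on the log2 scale in surface fish, with changes from -1.57 to -0.608, and 17 of 90 were at least 2-fold lower. The higher members had a median change of 0.65 and a range from 0.604 to 0.932. The values just inside the surface limit were 0.604 (SOX1) and 0.607 (ENSAMXG00000003998), and just outside it stood -0.60 (ENSAMXG00000021612) and -0.598 (myog, a muscle transcription factor). Just inside the cave limit were -0.196 (ENSAMXG00000030418) and -0.194 (lrrk2), and just outside it were -0.201 (ankrd1a) and 0.205 (bhlhe22). The members thus grade into genes on the other side of both limits.

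Averaged over the 90 lower members, surface UV-B libraries stood at -0.807, -0.798, -0.809 and -0.956 on the log2 scale relative to the mean of surface controls, against 0.00842, 0.119, 0.0373 and -0.165 in surface controls. Cave UV-B libraries stood at -0.346, -0.226 and -0.296, against -0.222, -0.267 and -0.245 in cave controls. The cave libraries of both treatments lay between the surface groups, overlapped each other and fell below all 4 surface controls. The rule required the surface groups of each member to be apart and its cave change to be under 0.2. The surface gap and the cave overlap of these means therefore follow from the choice. The same holds for single members given below. The choice of lower members used these surface controls, which favours genes that read high in them. Averaged over the 11 higher members, surface UV-B libraries stood at 0.654 to 0.699 and surface controls at -0.176 to 0.0948. Cave UV-B libraries stood at -0.69 to -0.535 and cave controls at -0.703 to -0.583, below every surface library.

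**Figure D2:**
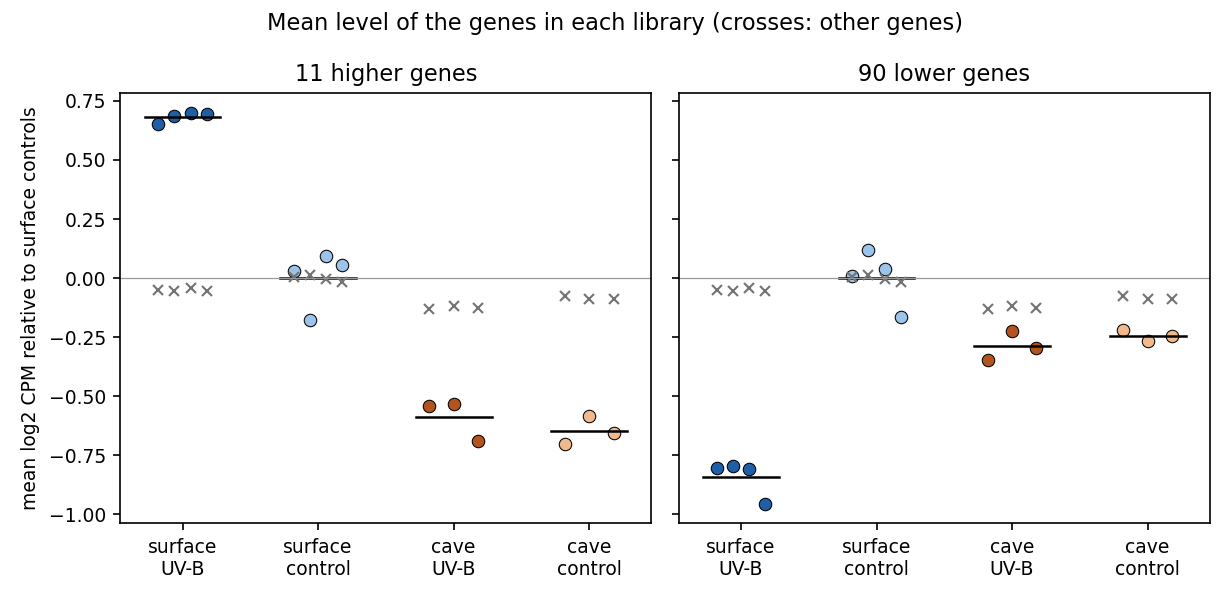
Mean log2 CPM of the 11 higher genes (left) and the 90 lower genes (right) in each library, relative to the mean of surface controls. Each circle is a library, bars are group means and crosses are the means of all other genes that passed the level limits. Cave UV-B and cave control libraries overlap in both panels, at -0.69 to -0.535 and -0.703 to -0.583 for the higher genes. The rule that chose the genes set the surface groups apart and kept the cave change small.

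Surface control replicate 4 was the control nearest to the UV-B libraries in 52 of 90 lower and 7 of 11 higher members. Without it 166 genes met the rule, 95 of them members, against 87 to 134 genes without any other single library. Whether its depth or its larvae set it apart was not tested.

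By edgeR's quasi-likelihood test over all genes, 97 of 101 members were called in surface fish at an adjusted p under 0.05, where 28.8% of all genes were called (15.4% lower and 13.4% higher). The rule used this contrast, so the count describes the choice. The 4 members that were not called had no gene name. In cavefish 0 of 101 had an unadjusted p under 0.05 by edgeR, a limit at which the share of all genes was not computed. By edgeR, DESeq2 or limma-voom 0 of 101 were called, where edgeR called 26.3% of all genes. Leaving out cave UV-B replicate 1 lowered that share to 15.3%. Leaving out cave UV-B replicate 4 gave 15.7%, and 0 members were called in either fit. The rule held the cave change under 0.2, which is below the members' median standard error of 0.235. These counts of 0 therefore describe the choice as well.

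A missing call in cavefish does not show that these genes did not respond. The 95% interval of the cave change included 0 in 101 of 101 members and had a median half-width of 0.504. It reached 0.6 in the direction of surface fish in 43 of 101 members, 39 lower and 4 higher. Members had fewer counts than other genes, with a median of 105 counts a library for members, 161 for the other surface responders and 238 for all genes that passed the level limits. Their median standard error of the cave change was 0.235, against 0.218 and 0.186 in those sets.

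The difference between the populations was itself called for 10 of 101 members by the test of the population by UV-B interaction over all libraries, where 3.70% of all genes were called (1.41% with the higher and 2.29% with the lower log2 change in cavefish). An unadjusted p under 0.05 was found in 79 of 101. The share of all genes at that unadjusted limit was not computed, so nothing is read from it. The 10 were all among the lower members. Of the 11 higher members 0 were called by edgeR or limma-voom and 1 by DESeq2, and 9 had an unadjusted p under 0.05 by edgeR. The count of 10 moved with single libraries, and so did the share of all genes called. Without surface control replicates 1, 2 and 4 in turn, 5 (2.39% of all genes), 4 (2.44%) and 24 (5.09%) members were called. The count was 4 (2.45%) without surface UV-B replicate 4. It was 16 (4.76%) without cave control replicate 4 and 5 (2.46%) without cave UV-B replicate 2. DESeq2 gave 25 (5.87%). With a block for the replicate number 6 members were called, 1 of them among the 10, where 2.06% of all genes were called. Whether that number pairs the libraries was not settled. Because the members were picked for unequal responses, these counts are no independent evidence of a difference.

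Gene names came from tables of the study that are held here only in part, with the most significant genes first, so genes that changed in these libraries are over-represented among the named ones. They gave names to 59 members, 55 lower and 4 higher, and 36 members were not in them. The groups of roles used here were made after the values had been seen. No named member was on the lists of photoreceptor, retinal interneuron, immediate early, p53 target, DNA repair, heat shock, circadian clock, mitochondrial or ribosomal protein genes. Over all 2080 named genes only 59 were members, and the DNA repair and clock lists held 6 and 5 named genes. The median control difference of the photoreceptor list was -5.48, beyond the limit of 2. The ribosomal list had a median surface change of 0.482, under the limit of 0.6. Nothing is therefore read from this absence.

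Among transcription factors, hnf1ba had the most negative change of all members. It encodes a homeodomain protein of kidney, liver and hindbrain development. Its level was 5.47, 3.87, 3.67 and 6.53 CPM in surface UV-B libraries, against 17.4, 15.3, 14 and 11.9 CPM in surface controls. In cavefish it was 9.46, 10.6 and 8.79 CPM after UV-B, against 9.48, 10.1 and 12.7 CPM in controls. All 4 surface UV-B libraries lay below every other library, and the cave groups overlapped. The log2 change was -1.57 in surface fish and -0.15 in cavefish, and the cave response exceeded the surface response by 1.41 (SE 0.298), an interaction call.

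Of the other lower factors, arid3a, an ARID family DNA-binding protein known from mammalian B cells, averaged 4.59 ± 1.90 CPM in surface UV-B libraries and 11.2 ± 1.92 CPM in surface controls (SD, n = 4 each). In cavefish it averaged 6.82 ± 1.71 CPM after UV-B and 7.41 ± 1.67 CPM in controls (SD, n = 3 each). The T-box gene tbx15, known from the mouse skeleton, had 13.7, 12.1, 13.7 and 15.6 CPM in surface UV-B libraries, against 28.4, 34.5, 24.9 and 23.2 CPM in surface controls. Its cave UV-B libraries held 21.9, 22.4 and 33.9 CPM and its cave controls 26.7, 29.2 and 31.4 CPM. The surface groups of tbx15 were well apart, the cave groups overlapped, and the interaction was called (0.851, SE 0.235). The change of pax9, a paired-box gene of pharyngeal and tooth development, was -1.15 in surface fish and -0.14 in cavefish. Its cave controls spread from 4.26 to 14.1 CPM, and the 95% interval of its cave change ran from -1.13 to 0.53, with a lower end close to the surface value.

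The higher members included six3b, which encodes a homeodomain factor of the forebrain and eye field. It had 49.3, 52.9, 49.7 and 55.4 CPM in surface UV-B libraries, against 32.8, 24.2, 32.4 and 35.4 CPM in surface controls. Cave UV-B libraries held 23.8, 21.5 and 21.3 CPM, against 21.0, 20.3 and 18.9 CPM in cave controls. All 3 cave UV-B libraries were above all 3 cave controls, and six3b was the only member whose cave groups did not overlap, where 44.7% of genes averaging 50 counts or more had cave groups apart. The limit on the cave change favours such overlap, so this count describes the choice. The log2 change was 0.74 in surface fish and 0.14 in cavefish, with a 95% interval from -0.21 to 0.49.

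SOX1, a neural progenitor factor of the SoxB1 group, was at 18.5 ± 1.93 CPM in surface UV-B libraries and 12.1 ± 1.61 CPM in surface controls (SD, n = 4 each). Its cave means, 16.8 ± 1.90 CPM after UV-B and 15.5 ± 2.35 CPM in controls (SD, n = 3 each), lay between the surface means. Its cave controls ran from 13.35 to 18.03 CPM, and their difference from surface controls was not called. Both genes belong to a list of retinal transcription factors, of which 17 had a name. Of these 17, 16 were called higher in surface fish, while 1 was called higher and 3 lower in cavefish, and 4 had an interaction call (23.5%). Over all named genes, 37.5% were called higher in surface fish, 31.3% higher in cavefish, 41.3% lower in cavefish and 15.2% for the interaction. The summed photoreceptor markers moved with UV-B in the same direction in both populations and were far lower in cavefish. The sum was mostly rho in surface fish (1970 CPM after UV-B, 1202 CPM in controls). In cavefish it was mostly crx (19.1 CPM after UV-B, 13.3 CPM in controls), a gene of the retinal transcription factor list. The part of these markers in the change of six3b and SOX1 was not tested.

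The 6 members on the list of NF-kB and inflammatory signalling genes were all lower, as were 89.1% of all members and 55 of the 59 named ones. The 6 were TRAF3, traf3ip2l, peli2, tank, ccl20b and map3k8, with log2 changes from -1.18 to -0.609 in surface fish. Their changes in cavefish lay between -0.178 and 0.193. The chemokine gene ccl20b, whose mammalian counterpart attracts lymphocytes and dendritic cells, had 16.1, 11.5, 10.9 and 11.3 CPM in surface UV-B libraries, against 23.1, 36.3, 30.1 and 24.6 CPM in surface controls. In cavefish it had 14.2, 12.7 and 15.2 CPM after UV-B, against 9.58, 17.2 and 16.1 CPM in controls. The cave libraries of both treatments were thus close to the surface UV-B libraries and below all surface controls. The interaction was called (1.18, SE 0.286).

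The kinase gene map3k8, which encodes the MAP3K that couples Toll-like and TNF receptors to ERK, behaved otherwise in its level. It had 4.54, 3.41, 6.08 and 3.38 CPM in surface UV-B libraries, against 8.31, 8.92, 9.88 and 9.36 CPM in surface controls. Cave UV-B libraries had 9.88, 12.4 and 11.6 CPM, against 10.9, 12.8 and 10.3 CPM in cave controls. Here the cave libraries sat at or above the surface controls, and the surface UV-B libraries were below all others. The interaction was called (1.07, SE 0.29).

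The adaptor gene tank, whose product binds TRAF proteins and TBK1, had 9.65, 7.66, 5.85 and 4.03 CPM in surface UV-B libraries, against 13.6, 13.8, 14.3 and 12.2 CPM in surface controls. In cavefish it had 10.7, 13.5 and 7.93 CPM after UV-B, against 8.13, 11.9 and 10.4 CPM in controls. The surface UV-B values of tank varied more than 2-fold among themselves, and the cave groups overlapped. TRAF3, a restraint on the non-canonical NF-kB pathway, averaged 3.33 ± 1.21 CPM in surface UV-B libraries and 7.19 ± 1.53 CPM in surface controls (SD, n = 4 each). It averaged 4.48 ± 0.466 CPM in cave UV-B libraries and 3.98 ± 1.16 CPM in cave controls (SD, n = 3 each), so its cave controls were already near the surface UV-B level.

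The product of traf3ip2l is related to an adaptor of the interleukin 17 receptor. The gene averaged 4.80 ± 1.01 CPM in surface UV-B libraries and 8.30 ± 1.01 CPM in surface controls (SD, n = 4 each), and cave controls were lower still, at 3.62 ± 0.688 CPM (SD, n = 3). For peli2, a ubiquitin ligase of Toll-like and interleukin 1 receptor signalling, the surface UV-B mean was 12.0 ± 1.43 CPM and the surface control mean 18.4 ± 2.27 CPM (SD, n = 4 each). Its cave libraries had 18.5 ± 3.44 CPM after UV-B and 20.8 ± 2.37 CPM in controls (SD, n = 3 each). The 6 genes thus share a lower level after UV-B in surface fish, as most members do, and differ in their cave level.

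The list held 31 named genes, and the rule had fixed both responses of its 6 members. Of the 25 that were not members, 21 (84.0%) were called lower in surface fish and 7 (28%) in cavefish, against 54.3% and 41.3% of all 2080 named genes. In cavefish 2 of the 25 had not been tested. Their median change was -0.999 in surface fish and -0.332 in cavefish, where the medians over all named genes were -0.44 and -0.38. An interaction call was found in 8 of the 25 (32.0%), against 15.2% of all named genes. The list was chosen with results of these libraries known, and genes called in surface fish are over-represented among the named ones, so the counts are a description and no difference between the populations was tested over the list. Among the 8, bcl3, an atypical IkB protein, changed by -1.71 in surface fish and 0.71 in cavefish, and nfkbiz, another, changed by -0.999 and 0.26. Others of the 8 had a larger rise in cavefish. The 2 entries named il1b changed by 1.04 and 0.412 in surface fish and by 3.37 and 4.27 in cavefish. The values for socs3a were 0.234 and 1.63. Over the 31 named genes, 5 (16.1%) were called higher in cavefish, against 31.3% of all named genes. Of the innate immune markers 2 of 5 (csf3r and spic) had a name. Their summed level was 5.55 to 8.95 CPM in surface UV-B libraries, against 11.1 to 15.5 CPM in surface controls. In cavefish it was 4.46 to 9.66 CPM after UV-B and 9.20 to 12.9 CPM in controls. Of these markers, csf3r is itself one of the 25 list genes above, and the study names spi-c as lower after UV-B in both populations. The part of both markers in the inflammatory members was not tested.

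**Figure D3:**
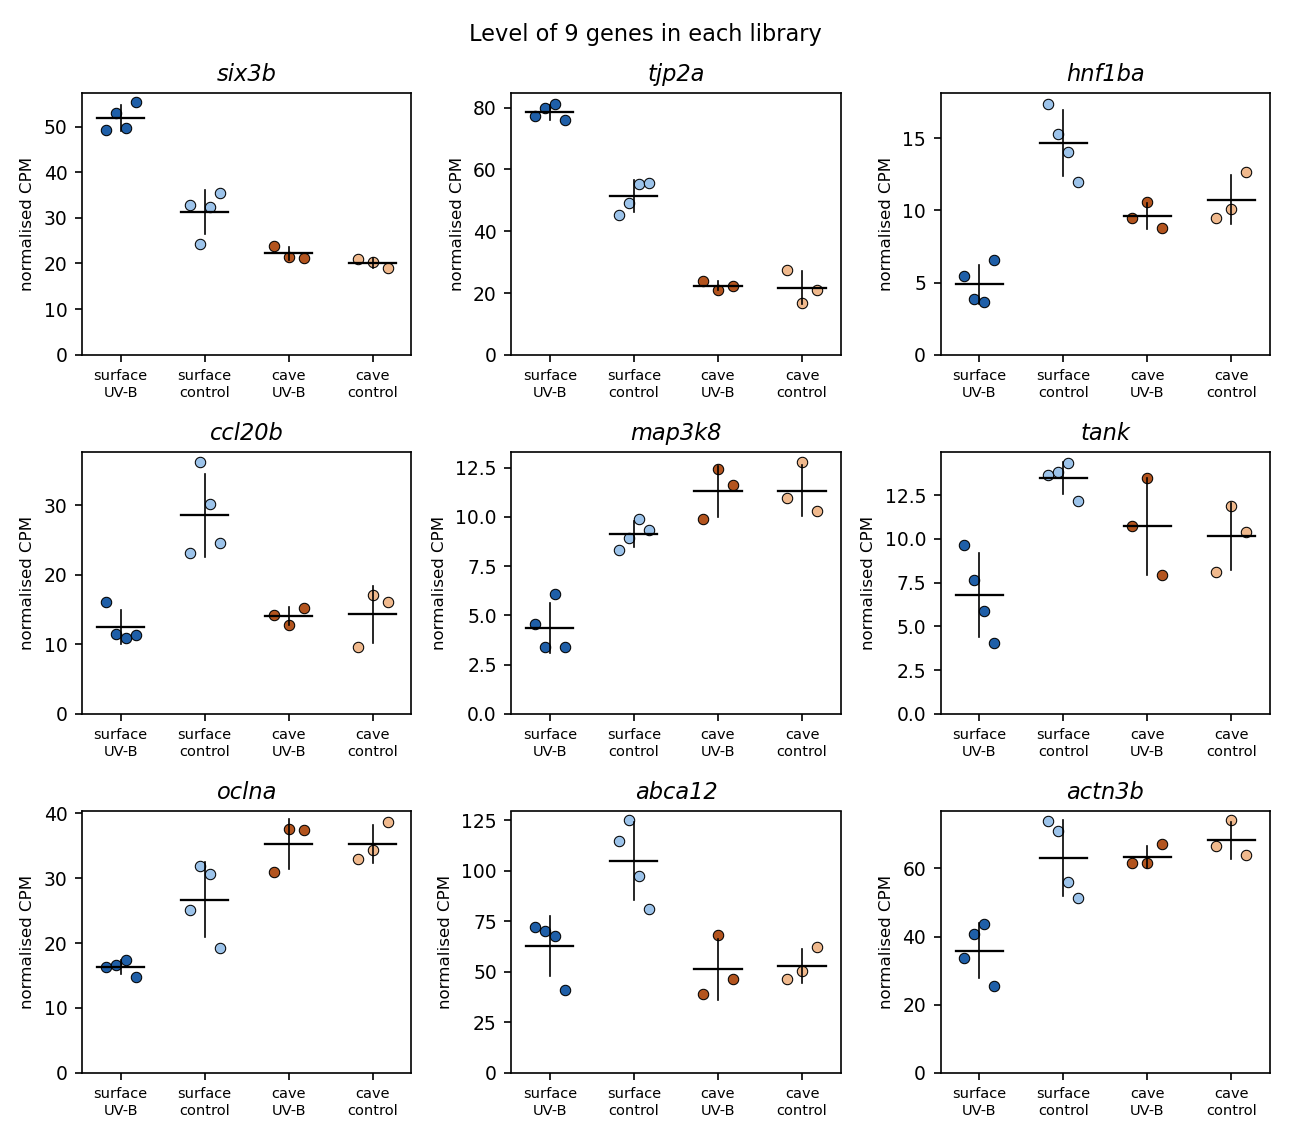
Normalised CPM of 9 genes in each library, by group. Points are libraries, horizontal bars are group means and vertical bars are the SD (n = 4 surface and n = 3 cave libraries a group). In every panel the surface groups are apart, while the cave groups overlap for all but six3b, and the cave level lies near the surface UV-B level for ccl20b and at or above the surface controls for map3k8. The rule that chose these genes required the surface groups to be apart and the cave change to be small.

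Further immune genes among the members were lower too, as most members were. The leukotriene B4 receptor gene ltb4r2a averaged 3.98 ± 0.934 CPM in surface UV-B libraries and 8.98 ± 1.18 CPM in surface controls (SD, n = 4 each), against 9.29 ± 2.42 CPM in cave UV-B libraries and 9.64 ± 2.40 CPM in cave controls (SD, n = 3 each). ly75, an endocytic receptor of mammalian dendritic cells, had narrow groups, with 15.0 to 21.3 CPM in surface UV-B libraries and 29.6 to 31.7 CPM in surface controls. Its cave libraries had 32.2 to 35.0 CPM after UV-B and 33.2 to 37.5 CPM in controls, all above the surface controls. Its interaction was called at a difference of 0.666 (SE 0.176). The leukocyte adhesion gene cd99 changed by -0.97 in surface fish and -0.08 in cavefish.

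Epidermal and junctional members went both ways. The gene tjp2a encodes ZO-2, a scaffold under tight junctions. It had 77.2, 79.8, 81.4 and 75.9 CPM in surface UV-B libraries, against 45.2, 49.3, 55.3 and 55.8 CPM in surface controls. Cave UV-B libraries had 23.8, 20.9 and 22.4 CPM, against 27.5, 16.8 and 20.9 CPM in cave controls. The cave libraries were below every surface library, and the cave groups overlapped.

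Occludin, the membrane protein of the same junctions, is encoded by oclna and went the other way. It had 16.3, 16.7, 17.3 and 14.8 CPM in surface UV-B libraries, against 25.0, 31.8, 30.6 and 19.2 CPM in surface controls. Cave UV-B libraries had 30.9, 37.6 and 37.4 CPM, against 33.0, 34.3 and 38.6 CPM in cave controls. Surface control replicate 4, at 19.2 CPM, was the control nearest to UV-B, and cave UV-B replicate 1 was the only cave library not above all surface controls.

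abca12, the keratinocyte lipid transporter of the skin barrier, had 72.3, 70.4, 67.7 and 40.9 CPM in surface UV-B libraries, against 115, 125, 97.7 and 81.1 CPM in surface controls. In cavefish it had 39.2, 68.2 and 46.6 CPM after UV-B, against 46.4, 50.3 and 62.5 CPM in controls. Its cave controls were below all surface UV-B libraries but replicate 4. The fourth of the group, fam83fb of the FAM83 family, changed by -1.16 in surface fish and 0.00 in cavefish, with a cave interval from -0.72 to 0.80.

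Of the 22 named genes on the list of epidermis and epithelial junctions, 19 (86.4%) were called lower and 3 higher in surface fish, and 11 lower and 1 higher in cavefish, against 54.3% and 41.3% of all named genes called lower. The median change was -0.843 in surface fish and -0.576 in cavefish. TMC6, whose human form is mutated in a skin disorder with wart virus susceptibility, was also lower after UV-B, with 15.9 to 22.7 CPM in surface UV-B libraries and 32.7 to 39.5 CPM in surface controls. Its cave libraries had 28 to 33.7 CPM after UV-B and 23.7 to 37.7 CPM in controls, and the interaction was called (0.86, SE 0.213).

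The 7 membrane transporters among the members, which include abca12 of the epidermal group, were lower, as were 89.1% of all members by the rule. These 7 changed by -1.20 to -0.608 in surface fish. Their changes in cavefish lay between -0.177 and 0.0573. The carnitine and organic cation transporter gene slc22a16 had 3.96, 4.43, 6.54 and 4.03 CPM in surface UV-B libraries, against 11.8, 14.3, 10.1 and 8.41 CPM in surface controls. In cavefish it had 5.29, 7.05 and 8.92 CPM after UV-B, against 7.40, 6.84 and 5.82 CPM in controls. Its surface UV-B libraries were below the controls of both populations apart from an overlap of replicate 3 with cave controls, and the interaction was called (1.31, SE 0.346). The phosphate transporter gene slc20a1b had narrow surface groups, at 50.5 ± 5.55 CPM after UV-B and 83.5 ± 3.20 CPM in controls (SD, n = 4 each), and a cave level near the UV-B one, at 51.8 ± 11.3 CPM after UV-B and 55.2 ± 10.3 CPM in controls (SD, n = 3 each). SLC7A1, a carrier of cationic amino acids, changed by -0.78 in surface fish and -0.13 in cavefish, and mfsd2ab, a carrier of lysophospholipids, by -0.61 and -0.15.

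The 6 genes of kinase and growth factor signalling, a group also made after the values were seen, had changes from -1.23 to -0.699 in surface fish. PIK3R6, a regulatory subunit of PI3K gamma, averaged 3.75 ± 0.948 CPM in surface UV-B libraries and 9.37 ± 3.44 CPM in surface controls (SD, n = 4 each). Its cave libraries averaged 5.4 ± 0.295 CPM after UV-B and 4.87 ± 1.30 CPM in controls (SD, n = 3 each). The insulin receptor substrate gene irs1 had tight surface groups of 14.4 ± 0.965 CPM after UV-B and 23.8 ± 1.80 CPM in controls (SD, n = 4 each), and cave groups between them, at 19.4 ± 3.81 CPM after UV-B and 19.7 ± 5.75 CPM in controls (SD, n = 3 each).

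lrrk2, the kinase gene tied to Parkinson's disease in humans, stood out by its level in cavefish. It had 8.03, 8.39, 7.92 and 6.32 CPM in surface UV-B libraries, against 16.3, 15.7, 15.0 and 12.1 CPM in surface controls. Cave UV-B libraries had 25.8, 24.4 and 33.6 CPM, against 37.0, 33.3 and 25.6 CPM in cave controls. The cave controls were higher than the surface controls by 1.1 on the log2 scale, the highest such value among the members. map3k15, another MAP3K gene, changed by -1.16 in surface fish and 0.19 in cavefish, and the TGF-beta binding gene ltbp1 by -0.70 and -0.17.

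In muscle, actn3b encodes the fast-fibre alpha-actinin of the Z-disc. It had 33.7, 40.7, 43.7 and 25.4 CPM in surface UV-B libraries, against 73.8, 71.1, 56.1 and 51.2 CPM in surface controls. Cave UV-B libraries had 61.5, 61.5 and 67.1 CPM, against 66.5, 74.3 and 63.9 CPM in cave controls. The cave libraries of both treatments were within or close to the range of surface controls. On the list of 40 named muscle genes 39 (97.5%) were called lower in surface fish and 18 (45.0%) in cavefish, and 3 (7.5%) had an interaction call, against 54.3%, 41.3% and 15.2% of all named genes. The summed level of 3 muscle markers, actn3b among them, was 92.9 to 109 CPM in surface UV-B libraries, against 136 to 196 CPM in surface controls. In cavefish it was 144.5 to 172 CPM after UV-B and 169 to 201 CPM in controls, and its part in the change of actn3b was not tested.

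The matrix genes frem3, a FRAS1-related basement membrane protein, and ADAMTS20, a matrix protease, changed by -0.93 and -0.76 in surface fish and by -0.15 and -0.15 in cavefish. Of 40 named matrix genes, 40 were called lower in surface fish and 24 (60.0%) in cavefish, against 54.3% and 41.3% of all named genes. Metabolic members were mat1a, which makes S-adenosylmethionine in liver, the fatty acid elongase gene elovl7b and the prostaglandin reductase gene PTGR1, with surface changes from -0.764 to -0.728. mat1a averaged 62.1 ± 7.57 CPM in surface UV-B libraries and 104 ± 16.3 CPM in surface controls (SD, n = 4 each), and 114 ± 9.53 CPM in cave UV-B libraries and 125 ± 15.1 CPM in cave controls (SD, n = 3 each). Of 3 liver and gut markers, 2 (apoa1a and fabp2) had a name, and their summed level was 1041 to 1729 CPM in surface UV-B libraries, against 656 to 828 CPM in surface controls. In cavefish it was 1019 to 1163 CPM after UV-B and 462 to 620 CPM in controls. These markers were thus higher after UV-B in both populations, while mat1a and hnf1ba were lower in surface fish, and their part in the change of either gene was not tested.

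Other lower members with large changes were filip1a, a filamin A-interacting protein, and klhl24a, a Kelch family member that controls keratin turnover in human skin. filip1a changed by -1.29 in surface fish and -0.06 in cavefish, and klhl24a by -1.28 and -0.10. The interaction was also called for mob2a, a partner of NDR kinases (0.963, SE 0.216), for si:ch211-129c21.1 (0.70, SE 0.159) and for ENSAMXG00000018194 (0.924, SE 0.207). In mob2a the surface UV-B libraries had 7.95 to 9.77 CPM and the surface controls 15.0 to 18.4 CPM, with the cave libraries between them at 11.8 to 12.7 CPM after UV-B and 10.3 to 12.3 CPM in controls.

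Members without a name had changes of the same order. ENSAMXG00000017254 averaged 3.98 ± 0.875 CPM in surface UV-B libraries and 11.3 ± 0.986 CPM in surface controls (SD, n = 4 each), and its cave level was 5.69 ± 2.62 CPM after UV-B and 6.37 ± 2.73 CPM in controls (SD, n = 3 each). ENSAMXG00000007344 changed by -0.98 in surface fish and 0.13 in cavefish. ENSAMXG00000042137 was the higher member with the largest change, 0.93, with 151 to 248 CPM in surface UV-B libraries and 69.7 to 141 CPM in surface controls. Its cave libraries held 37.0 to 47.1 CPM after UV-B and 28.3 to 52.3 CPM in controls. ENSAMXG00000010917 and gpr37a, a G protein-coupled receptor of the nervous system, had changes of 0.73 and 0.61 in surface fish and 0.10 and -0.06 in cavefish.

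The members' levels in unexposed larvae were also set side by side. Cave controls were lower than surface controls by a median of 0.279 for the lower members, where the median over all genes that passed the limits was -0.0544. They were lower by at least 0.5 in 24 of 90, within 0.5 in 60 and higher by at least 0.5 in 6. In 36 of 90 the cave controls were nearer to surface UV-B than to surface controls, and in 8 they were at or beyond the surface UV-B level, among them traf3ip2l, RNF207 and abca12. The surface change and the control difference share the same surface controls. Surface controls that read high by chance lower both, so the median and counts of the lower members are partly built in by the choice. For the higher members, cave controls were lower by a median of 0.617. They were lower by at least 0.5 in 6 of 11, and the rule barred values of 0.5 or more on the other side.

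The control difference was called for 34 of 101 members (29 lower and 5 higher in cavefish), where 27.6% of all genes were called (15.0% lower and 12.7% higher). The control groups did not overlap in 41 of 101 members, against 35.6% of genes averaging 50 counts or more. After UV-B the cave and surface libraries did not overlap in 58 of 101, against 49.4%. The rule limited the control difference and fixed both responses, so nothing is read from these counts.

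**Figure D4:**
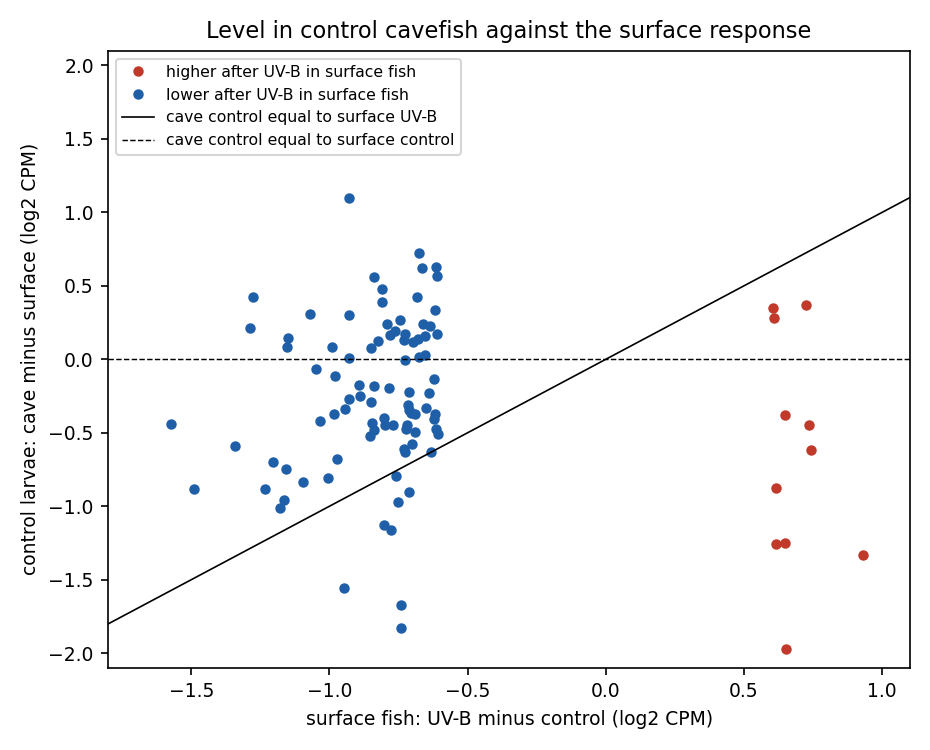
Cave minus surface difference in control larvae (vertical axis, log2 CPM) against the surface response to UV-B (horizontal axis, log2 CPM), with a point for each of the 101 members. The dashed line marks cave controls equal to surface controls and the solid line cave controls equal to surface UV-B. Of the 90 lower genes (blue), 8 lie on or below the solid line and 6 lie 0.5 or more above the dashed one, and of the 11 higher genes (red) 6 lie 0.5 or more below it. Both axes use the same surface controls, so they are not independent.

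Since the values above had chosen the genes, the rule was also applied without each library in turn and the chosen genes were then measured in the library left out. In a left-out surface UV-B library the median change of the lower genes was -0.825 to -0.568, and 81.9% to 93.6% of them lay below all surface controls. The share of all genes below those controls was not computed, so nothing is read from these percentages. Against a left-out surface control it was -0.921 to -0.495. The value nearest to 0 was that of surface control replicate 4. In a left-out cave UV-B library the median of the lower genes was -0.225 to -0.0964, and against a left-out cave control it was -0.30 to -0.184, while the median over all genes was -0.0335 to -0.00257 over all libraries left out. Of the genes so chosen, 41.0% to 49.5% were within 0.2 in the left-out cave UV-B library and 60.4% to 76.0% were below 0. Against a left-out cave control, 32.7% to 38.2% were within 0.2, and 5.62% to 25.7% were at -0.6 or beyond. The 31.8% of genes within 0.2 given above came from group means over all libraries, which is not a like measure. No share of all genes was computed for a left-out cave library, so nothing is read from these percentages. The lower genes thus had a small median change in the direction of surface fish in each of the 6 left-out cave libraries. They were picked for a small cave change from lower surface responders, whose median cave change was -0.773 over 937 genes. A library kept out of the choice tends back towards that value, so this direction is partly built in. The median over all genes is not that of this pool. For the higher genes the median was 0.374 to 0.538 in a left-out surface UV-B library. Against a left-out surface control it was 0.276 to 0.961. In cavefish it was 0.0462 to 0.177 for UV-B libraries and 0.0836 to 0.168 for controls, also in the direction of surface fish. This too is partly built in, since the 290 higher surface responders had a median cave change of 1.13. Each left-out library was set against the other group of its population, which took part in the choice. The scaling also used all 14 libraries. The values of both surface and cave libraries are therefore not independent of the choice.

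**Figure D5:**
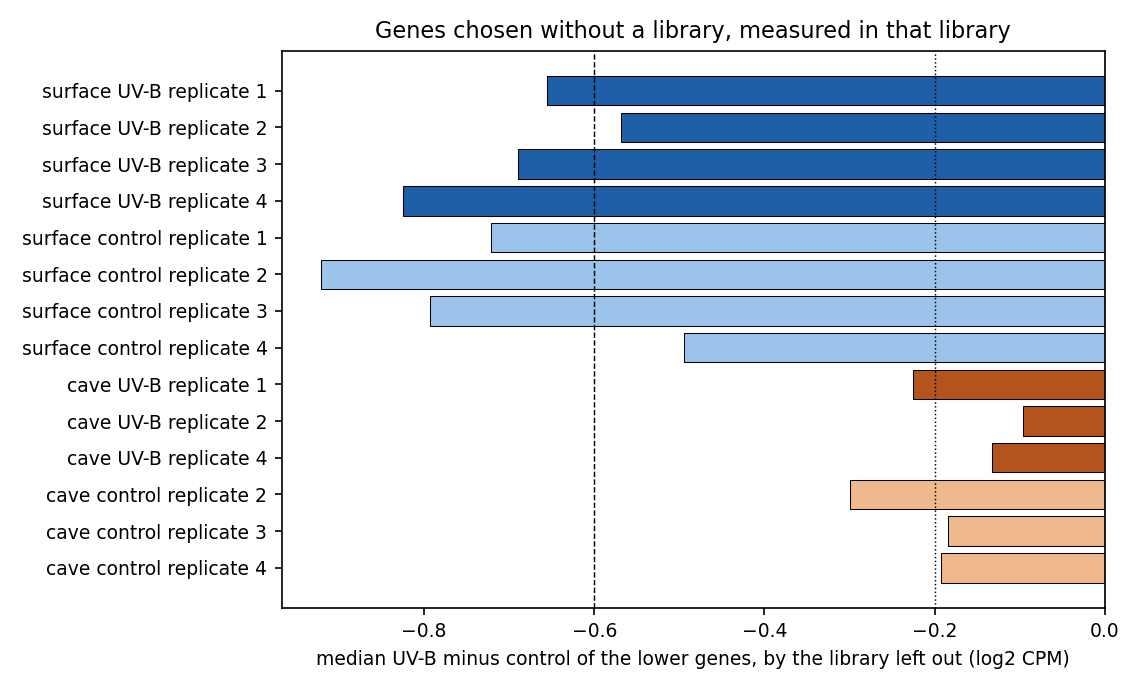
Median UV-B minus control difference (log2 CPM) of the lower genes chosen without a library, measured with that library, with a bar for each library left out. Dashed and dotted lines mark -0.6 and -0.2. Bars of surface libraries run to -0.495 or beyond, and those of cave libraries end between -0.30 and -0.0964.

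Membership depended on single libraries near the limits. Only 16 of 101 members, 13 lower and 3 higher, met the rule without any single library, among them six3b, map3k8, TMC6, ly75, mob2a, filip1a, ern2, a sensor of unfolded proteins in epithelial cells, and actn3b. It also depended on the scaling, since dividing by library totals moved the median of all genes to -0.194 in surface fish, -0.331 in cavefish and -0.249 between controls. The lower members then had a median of -0.956 in surface fish and -0.368 in cavefish, and 80 of 90 had a cave change of -0.2 or less. Over all genes, the share of calls that were higher was 16.1% with library totals against 46.4% with TMM in surface fish, 15% against 47.7% in cavefish, 16.8% against 38.1% for the interaction and 23.7% against 45.9% between controls. All 90 lower and 11 higher members kept the direction of their surface change under this scaling and under the size factors of DESeq2.

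Of the genes the study discusses, hspb9, cpdp and ddb2 were not members. The photolyase gene cpdp changed by 0.51 in surface fish and 0.06 in cavefish, below the surface limit. It was called higher in surface fish, and was called neither in cavefish nor for the interaction. The study describes a strong cpdp response in surface fish and none in cavefish. The damage recognition gene ddb2 changed by 0.23 and -0.26, and the small heat shock protein gene hspb9 by 1.05 and 3.05. The study names hspb9 as selectively increased in surface fish, whereas here edgeR called it higher in both populations, with the larger change in cavefish. The study's calls came from DESeq2 within each population, so the tests differ.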

How the data were processed

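The deposited table held raw read counts per gene for 14 libraries, and every count column was matched to a sample by its name (0 sample columns were unused). The authors had aligned the reads with STAR to genome version 2.0 and counted them against an Ensembl annotation, as the study's methods state. The strand setting and the handling of shared reads are not given in the sources used here, so overlapping, antisense and near-identical genes are uncertain. Groups and replicate numbers came from the sample titles, and p-values measure the spread between pools.

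Log2 CPM used edgeR 4.0.16 (R 4.3.3) with TMM scaling over the 14 libraries together and 2 as the prior count. Calls came from the edgeR quasi-likelihood test with filterByExpr and Benjamini-Hochberg adjustment over all genes tested. UV-B and control libraries were fitted within each population, control libraries between populations, and the interaction over all libraries. Standard errors were the absolute log2 change divided by the square root of F. The fits were also run on simulated counts with a spread set in advance and shifts larger than nearly all member changes. That run does not show how accurate they are for the members.

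The members and the gene lists were chosen with earlier results of these data known. The lists were drawn from names in the study's differential expression tables, which are held here in part, with the most significant genes first, so named genes were mostly ones called in these libraries. Only identifier, name and type were read from those tables (2384 identifiers) for this report, and their fold changes, which had guided the choice of lists, are not reported. Named genes were the 10 named members with the highest and the 10 with the lowest surface change (4 higher ones had a name), members on a list, 2 unnamed members in each direction, the 2 genes on each side of the limits, and hspb9, cpdp and ddb2. Other members were named after their values were seen.

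Alternatives were library totals, DESeq2 size factors, other prior counts, limits and filters, DESeq2 1.42.0, limma-voom (limma 3.58.1), a replicate block and leaving out each library. A single model over all libraries and the removal of lower genes with low cave controls were added after the data were seen. Counting limits of 3 counts a library cover counting error only.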

Additional observations from a re-analysis of the deposited data

Results flagged for a closer look

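In 7 of 82 groups of 4 libraries a single library lay apart from the other 3 by Dixon's criterion, which chance meets in about 1 of 20 groups. In surface UV-B libraries these were gpr37a in replicate 2 (29.1 CPM, others 23.6 to 24.4), ccl20b in replicate 1 (16.1 CPM, others 10.9 to 11.5) and abca12 in replicate 4 (40.9 CPM, others 67.7 to 72.3). They also included ENSAMXG00000017254 in replicate 1 (2.68 CPM, others 4.25 to 4.52) and ENSAMXG00000007344 in replicate 2 (8.12 CPM, others 3.92 to 4.59). The mean of the 90 lower members was apart in surface UV-B replicate 4 (-0.956, others -0.809 to -0.798). In surface controls ENSAMXG00000021612, just outside the surface limit, was apart in replicate 2 (9.02 CPM, others 5.30 to 5.76).

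Among the genes named by rule, the response to UV-B differed between cavefish and surface fish by the interaction test for 4 members and 2 other genes. The cave response exceeded the surface response by 1.41 in hnf1ba, 1.31 in slc22a16, 1.18 in ccl20b and 1.07 in map3k8. It did so by 1.94 in hspb9, which was higher after UV-B in both populations, and by 1.00 in ankrd1a, a muscle stress gene just outside the cave limit. The members had been chosen for unequal responses.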

How the results depend on the processing

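The rule found 101 genes, a count that moved with the limits and the scaling. It found 66 genes with library totals, 10 of them members, 50 with a cave limit of 0.1, 161 with a cave limit of 0.3 and 42 with a surface limit of 0.8. It found 93 with DESeq2 size factors, 104 and 97 with prior counts of 0.5 and 5, 125 with the count minimum at 20, and 77 without lower genes that had low cave controls. Leaving out single libraries gave 87 to 166 genes by the rule, 90 to 98 members called in surface fish, 0 to 0 in cavefish, 4 to 24 for the interaction and 23 to 35 for the controls. The shares of all genes called in those fits were 21.1% to 29.6%, 15.3% to 26.7%, 2% to 5.09% and 20.7% to 32.6%. With library totals 6 members were called in cavefish (31.6% of all genes) and 5 for the interaction (4.73%), and DESeq2 called 25 for the interaction (5.87%). Over all genes the interaction count was 596 by edgeR and 946 by DESeq2. Over all alternatives, the named genes kept their side of the threshold in 617 surface results and 737 interaction results, lost a call in 4 and 43, gained one in 3 and 39, and reversed in 0.

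Whether replicate numbers pair the libraries was not settled. UV-B and control libraries of the same number had deviations correlated at 0.143, -0.0499, 0.0126 and 0.128 in surface fish and at 0.228 and 0.14 in cavefish, where 2 pairs exist. Surface UV-B replicate 2 correlated best with control replicate 3 (0.18) and replicate 3 with control replicate 2 (0.172). Surface UV-B replicates 1 and 4 correlated best with the control of their own number, as did cave UV-B replicates 2 and 4. A block for that number gave calls for 98 members in surface fish, 0 in cavefish, 6 for the interaction (1 of them among the 10) and 23 for the controls, and over all genes 332 for the interaction and 2874 for the controls, against 4367 without the block.

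Depth limits the weakly expressed members, whose lowest library counts were 16 among the lower and 18 among the higher members.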
